A study of Mus musculus with 8 samples.

Results

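The genes described are 35 genes of glycolysis and of the response to low oxygen, chosen by name: 15 glycolytic enzymes, 3 carriers of glucose or lactate and 17 further hypoxia-response genes. Of these, 33 were matched to a probe set, 31 to a probe set annotated to that gene alone, and 30 of those were bright enough to be tested, among 18193 genes with a probe set of their own and 11525 tested. Gpi1 and Eno1 were not analysed here. Gapdh and Bnip3l had only probe sets that they share with pseudogenes, or for Gapdh control probe sets, and Slc16a3 was too dim to be tested. The cells were oligodendrocyte precursor cells, the dividing glia that later make myelin, of ICR mice. They came from mixed primary cultures of the cerebral hemispheres of embryos aged 15 days, grown for 5 days in medium with 10% fetal bovine serum. After passage into serum-free medium they were held for 48 hr at 31.5 °C (4 arrays) or at 37 °C (4 arrays), and every group shared this preparation. Neither genotype nor oxygen level was varied in the labels. The labels name 3 mice for each group but 4 replicate numbers, with nothing on whether each number is a culture of its own, so the p-values measure the spread between these arrays, which may be technical.

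Glycolysis splits glucose into pyruvate, which cells either burn in the mitochondria or reduce to lactate and export. When oxygen is short, hypoxia-inducible factor (HIF) escapes the prolyl hydroxylases that mark it for destruction, pairs with ARNT and binds a short DNA core in front of its targets, which include most glycolytic enzymes, the glucose carrier Slc2a1, and genes of mitophagy, blood vessel growth and pH control. Oligodendrocyte-lineage cells are known for active glycolysis and for the export of lactate to axons through Slc16a1. The design asks how gene expression in these cells differs between the normal and a lowered culture temperature.

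Across the 30 tested genes most differences were small, and they went both ways. At 31.5 °C, 2 of the 30 were lower and 0 were higher at a limma adjusted p under 0.05, which is 6.67% of them, against 15.4% of all genes tested (7.64% higher and 7.77% lower). The 2 were Ndrg1, a gene induced by stress and differentiation, and Pdk1, the kinase that shuts off pyruvate dehydrogenase. At an unadjusted p under 0.05 3 genes were higher and 6 lower, against 31.1% of all genes (15.6% higher and 15.5% lower). The arrays of 1 replicate number deviated together, and in the fit that pairs them 4 genes were higher (Slc2a1, Bnip3, Adm and Higd1a) and 4 were lower (Pfkp, Eno2, Ndrg1 and Pdk1), 26.7% of the 30 against 30.8% of all genes (15% higher and 15.8% lower). The unpaired share lay below that over all genes and the paired share close to it. With the arrays centred on their median, a change of scale that moved the median difference of all genes from -0.0017 to 0.0873 on the log2 scale, 0 of the 30 passed in either direction, where 6.29% of all genes did (3.94% higher and 2.35% lower). The 31.5 °C and 37 °C signals did not overlap for 5 genes, 16.7% against 22.2% of all genes (11.7% higher and 10.5% lower): Slc2a1, Bnip3 and Higd1a were higher at 31.5 °C, Pgam1 and Pdk1 lower. The median size of the difference, without its sign, was 0.158 on the log2 scale over the 30 and 0.182 over all genes tested. The size was under 0.2 in 19 of the 30 (63.3%), against 53.9% of all genes. It was at least 0.5 in 4 of the 30 (13.3%), against 11.3% of all genes. In bulk cultures, fewer cells of a type and less RNA per cell cannot be told apart.

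**Figure D1:**
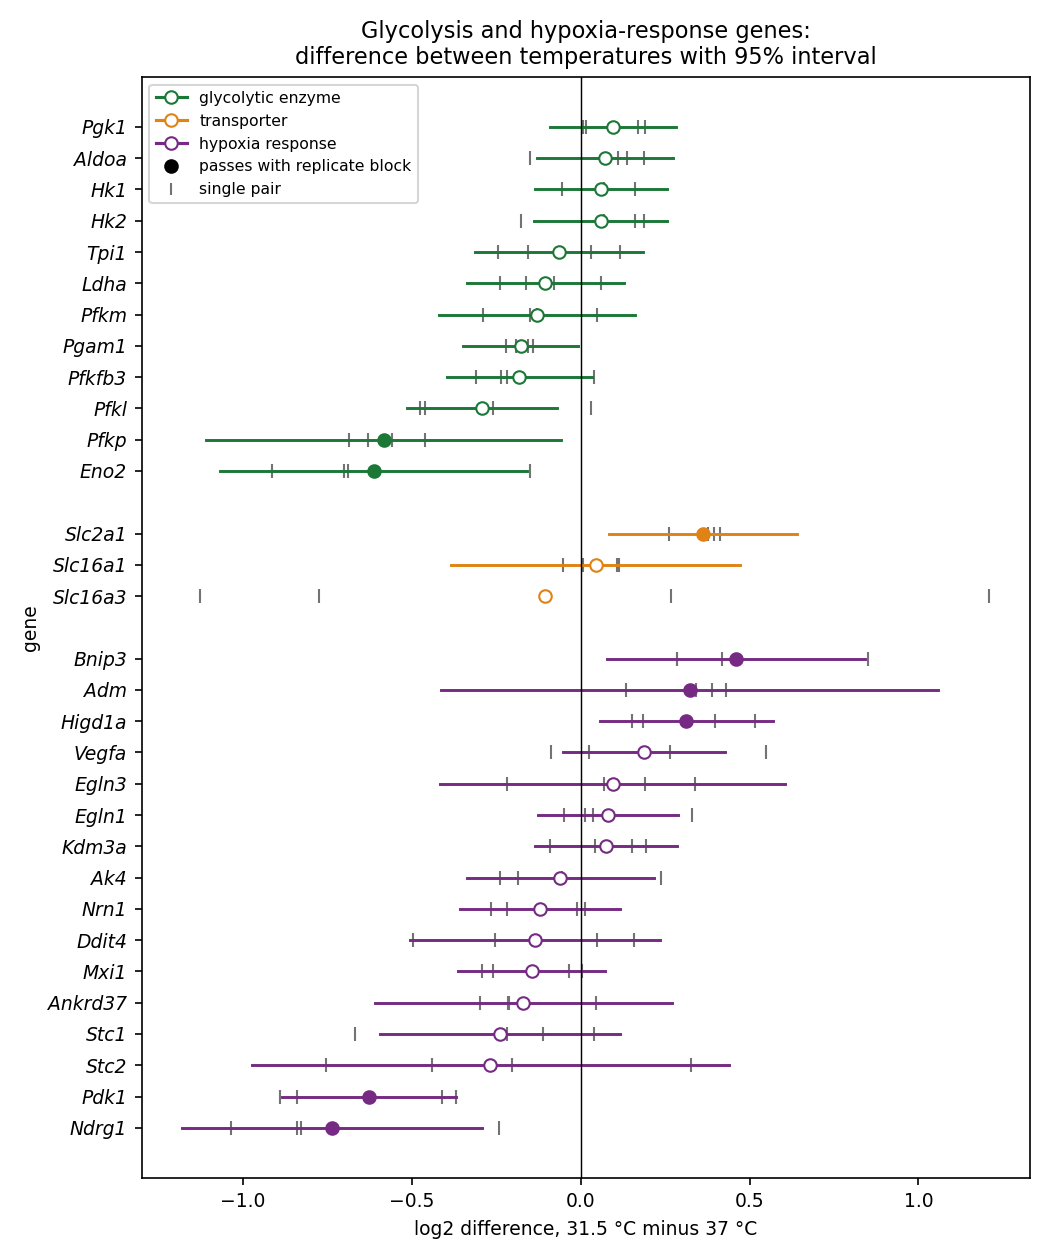
Log2 difference of each gene, 31.5 °C minus 37 °C, with its 95% interval from the unpaired limma fit (n = 4 arrays each); short strokes are the 4 single pairs and filled points passed with the replicate number as a block. Ndrg1 and Pdk1 also passed without the block, Slc16a3 was not tested and has no interval, and most of the other points lie within 0.2 of 0.

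The promoters of 7 of the 8 genes that passed in the paired fit are shown. Ndrg1 passed too but had no RefSeq window. The choice rests on that fit alone, and some of its calls depended on the pairs kept or on the probe set. The sequences run 5′ to 3′ on the gene's own strand, are 300 bases long, from 250 before the start site to 50 after it, and come from RefSeq on GRCm38.p6; capitals mark the HIF core, searched as ACGTG or GCGTG on both strands (read on the other strand as CACGT or CACGC). They lie at chr4:119108495-119108794 on the plus strand (Slc2a1), chr7:138909457-138909756 on the minus strand (Bnip3), chr7:110627407-110627706 plus (Adm), chr9:121857747-121858046 minus (Higd1a), chr13:6648722-6649021 minus (Pfkp), chr6:124769624-124769923 minus (Eno2) and chr2:71872974-71873273 plus (Pdk1, the first of its windows).
Slc2a1: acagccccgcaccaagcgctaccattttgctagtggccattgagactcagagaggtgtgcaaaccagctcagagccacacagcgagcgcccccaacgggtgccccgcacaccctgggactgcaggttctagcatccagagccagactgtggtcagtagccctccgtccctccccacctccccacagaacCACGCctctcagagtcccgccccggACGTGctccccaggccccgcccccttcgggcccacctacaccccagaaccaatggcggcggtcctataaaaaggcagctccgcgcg
Bnip3: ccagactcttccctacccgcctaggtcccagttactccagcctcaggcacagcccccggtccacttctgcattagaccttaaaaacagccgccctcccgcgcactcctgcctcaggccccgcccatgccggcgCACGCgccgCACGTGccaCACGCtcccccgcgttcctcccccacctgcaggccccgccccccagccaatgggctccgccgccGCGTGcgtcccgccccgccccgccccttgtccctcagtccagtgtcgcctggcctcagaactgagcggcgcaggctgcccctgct
Adm: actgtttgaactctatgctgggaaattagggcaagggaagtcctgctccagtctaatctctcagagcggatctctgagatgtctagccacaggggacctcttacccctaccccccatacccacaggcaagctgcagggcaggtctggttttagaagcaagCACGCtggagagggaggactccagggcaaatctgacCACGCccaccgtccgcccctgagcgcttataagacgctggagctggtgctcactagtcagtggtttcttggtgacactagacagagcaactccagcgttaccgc
Higd1a: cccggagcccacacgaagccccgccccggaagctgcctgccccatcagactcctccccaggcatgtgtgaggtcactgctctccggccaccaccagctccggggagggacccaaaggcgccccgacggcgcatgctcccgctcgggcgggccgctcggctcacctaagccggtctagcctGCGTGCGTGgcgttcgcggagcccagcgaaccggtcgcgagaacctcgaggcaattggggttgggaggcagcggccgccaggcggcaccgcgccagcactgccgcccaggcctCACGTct
Pfkp: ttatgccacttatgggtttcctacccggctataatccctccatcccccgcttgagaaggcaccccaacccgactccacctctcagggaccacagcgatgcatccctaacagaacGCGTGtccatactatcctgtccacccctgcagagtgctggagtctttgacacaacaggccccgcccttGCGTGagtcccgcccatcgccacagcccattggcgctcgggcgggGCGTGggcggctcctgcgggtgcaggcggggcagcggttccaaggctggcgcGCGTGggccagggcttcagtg
Eno2: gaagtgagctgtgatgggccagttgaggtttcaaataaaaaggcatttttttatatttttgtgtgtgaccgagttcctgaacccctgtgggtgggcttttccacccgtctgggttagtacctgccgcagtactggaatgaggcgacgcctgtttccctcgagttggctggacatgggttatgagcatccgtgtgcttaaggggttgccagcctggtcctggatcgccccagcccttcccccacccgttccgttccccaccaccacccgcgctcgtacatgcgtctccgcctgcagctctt
Pdk1: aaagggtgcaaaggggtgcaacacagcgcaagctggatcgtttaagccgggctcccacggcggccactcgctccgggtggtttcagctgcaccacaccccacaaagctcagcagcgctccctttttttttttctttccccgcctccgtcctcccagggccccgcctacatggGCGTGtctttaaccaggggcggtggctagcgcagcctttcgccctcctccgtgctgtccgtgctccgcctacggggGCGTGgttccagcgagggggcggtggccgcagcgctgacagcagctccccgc

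Cores stood in promoters of both directions. Slc2a1 had them at -61 and -36 from the start site, Adm at -90 and -54, and Higd1a at -70 and -66 and, after the start, at 43. Bnip3 had 5, at -117, -108, -107, -99 and -35, of which the pair at -108 and -107 is a single CACGTG, read on both strands, that is also the E-box bound by MYC and clock factors. Pfkp, lower at 31.5 °C, had 4, at -136, -68, -23 and 29, and Pdk1, also lower, had 2, at -78 and -2. These letters are not in the Eno2 window. Over 31 of the genes with a RefSeq window, 28 (90.3%) had a core in at least 1 window, against 12628 of 27025 genes (46.7%); by window the shares were 78% of 50 and 43.8% of 32851. For the forms apart, ACGTG stood in 50% of the gene group's windows against 19.6% of all, GCGTG in 58% against 32.4%, and CACGTG in 12% against 7.15%. Windows of 1 gene can overlap, and the group's windows were also richer in G and C, with a median of 64.7% against 52.7%. A match describes the sequence and is no evidence of binding.

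Among the enzymes that admit glucose to the pathway and commit it, only the phosphofructokinase Pfkp passed in either fit of the genes. Hexokinase, the first step, did not pass: Hk1 had signals of 821 ± 53.1 (SD, n = 4) at 31.5 °C and 788 ± 56.5 at 37 °C, and Hk2 255 ± 12.7 and 246 ± 21.5, a log2 difference of 0.06 for each. Of the 3 phosphofructokinases, which catalyse the committed step, Pfkp read 403, 237, 246 and 371 in replicates 1 to 4 at 31.5 °C and 623, 349, 395 and 511 at 37 °C. Every 31.5 °C array lay below its partner, while the groups overlapped because replicates 1 and 4 were high at both temperatures. The log2 difference was -0.58 ± 0.23 (SE), with an adjusted p of 0.124 in the unpaired limma fit and 0.00321 in the paired fit, and 0.0116 to 0.0182 in the paired fit without any single pair. The other probe sets of Pfkp were lower by smaller amounts, at -0.45 and -0.27, and did not pass in either fit. Pfkl, the liver form, had 680, 611, 582 and 618 against 667, 732, 809 and 850, so that only replicate 1 was level; the difference was -0.29 ± 0.10 (adjusted p 0.0783, paired 0.0704). Its other tested probe set lay lower in all 4 pairs without overlap, 400 ± 39.8 against 502 ± 83.1, at -0.32 (0.142, paired 0.0523). Pfkm, the muscle form, was at -0.13 (adjusted p 0.538). Pfkfb3, which makes the sugar phosphate that activates phosphofructokinase, was at -0.18 (adjusted p 0.227). Over the 6 tested genes of this stage the median difference was -0.16, with 2 above 0 and 4 below.

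Of the 6 tested enzymes of the later steps of the pathway, Aldoa, Tpi1, Pgk1 and Ldha differed little between temperatures. Aldoa read 4863 ± 335 at 31.5 °C and 4629 ± 346 at 37 °C, Tpi1 2356 ± 241 and 2465 ± 284, Pgk1 5192 ± 315 and 4860 ± 301, and Ldha, the lactate-forming enzyme, 3677 ± 358 and 3952 ± 366. Their log2 differences were 0.07, -0.06, 0.10 and -0.10, with adjusted p from 0.475 to 0.738, and their 95% intervals together ran from -0.34 to 0.28. A difference of 0.5 or more in size lay outside the interval of each of these 4 genes. A further probe set of Pgk1 read higher at 31.5 °C by 0.47 without passing (adjusted p 0.235), its 37 °C arrays ranging from 1682 to 4097. Pgam1, which moves the phosphate before the enolase step, had 3169, 3037, 3029 and 2781 at 31.5 °C against 3529, 3353, 3462 and 3241 at 37 °C. All 4 pairs were lower and the groups did not overlap, yet the difference of -0.18 ± 0.08 passed in neither fit (adjusted p 0.146, paired 0.0668).

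Eno2, the enolase typical of neurons, was the enzyme with the greatest difference. It read 216, 220.4, 184 and 223 at 31.5 °C and 407, 359, 204 and 360 at 37 °C. At 37 °C the third replicate sat with the 31.5 °C arrays and the other three stood well above them. The difference was -0.61 ± 0.20 (adjusted p 0.0704, paired 0.0162); without the third 37 °C array it was -0.83 with an adjusted p of 0.00495, and in the paired fit it passed without pair 3 (0.0101) but not without pair 1, 2 or 4 (0.0549 to 0.0624). Of 14 tested neuron markers, 1 was higher and 1 lower at 31.5 °C (5 lower and 1 higher in the paired fit), their median difference was -0.26, and the part of neurons in the Eno2 difference was not tested. Gapdh could be read only through probe sets shared with pseudogenes and through the array's controls: the brightest shared one read 9105 ± 402 and 9095 ± 1329, and the control for the 3′ end 8040 ± 284 and 7983 ± 932. These differed by 0.01 and 0.02 on the log2 scale.

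**Figure D2:**
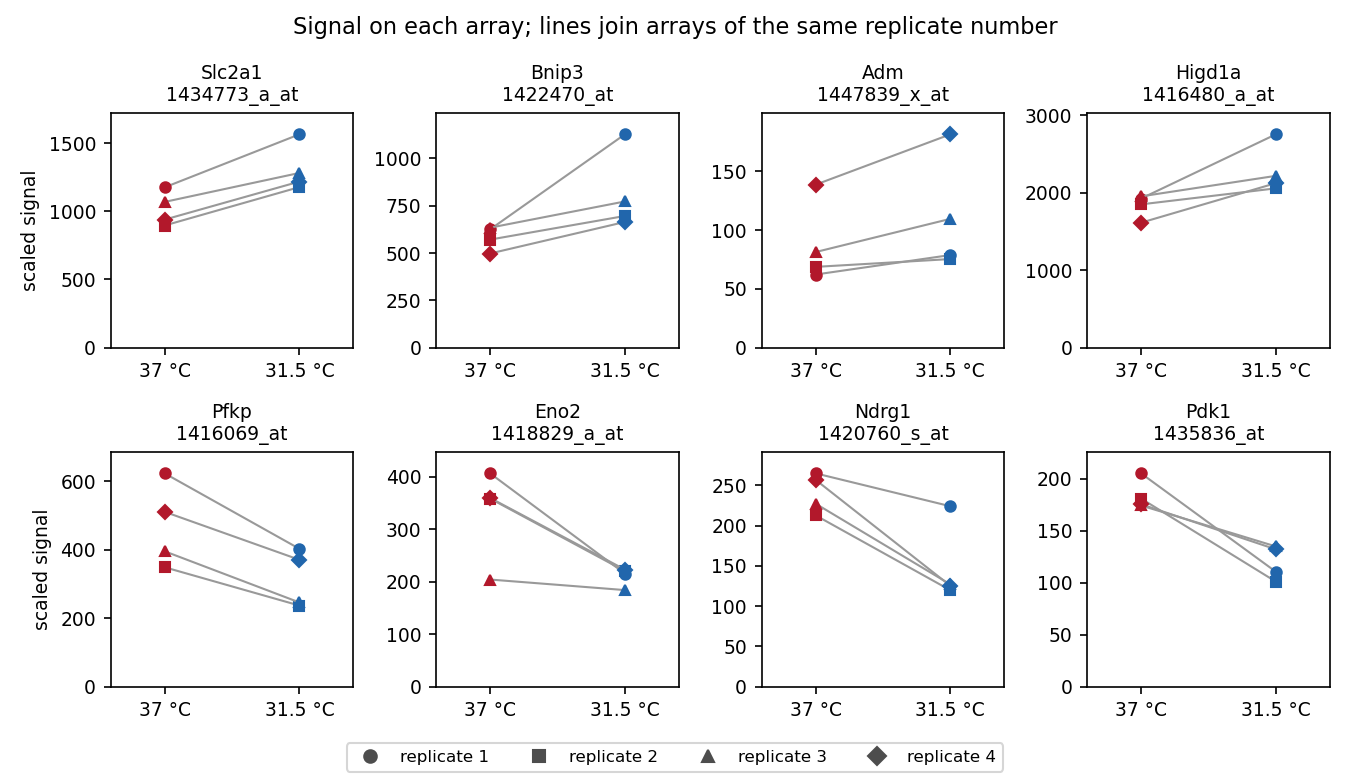
Scaled signal on each array (linear axis from 0) at 37 °C and 31.5 °C for the 8 genes that passed in the paired fit; lines join arrays of 1 replicate number. All lines of Slc2a1, Bnip3, Adm and Higd1a rise toward 31.5 °C and all lines of Pfkp, Eno2, Ndrg1 and Pdk1 descend.

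Of the carriers, the glucose carrier Slc2a1 was higher at 31.5 °C in every pair. It read 1564, 1177, 1281 and 1217 at 31.5 °C and 1175, 895, 1068 and 939 at 37 °C. The lowest 31.5 °C array lay just above the highest 37 °C array, so the groups touched but did not overlap. The difference was 0.36 ± 0.12, a 1.28-fold level with a 95% interval of 0.08 to 0.64 on the log2 scale; the adjusted p was 0.0811 in the unpaired fit and 0.00985 in the paired fit, where it passed without any 1 of the 4 pairs (0.0272 to 0.0428). Both other probe sets of Slc2a1 agreed in direction, at 0.43 and 0.38, and passed in the paired fit of single probe sets (adjusted p 0.0110 and 0.0388). Slc16a1, which exports lactate, read 3081, 2713, 3165 and 2100 against 3065, 2519, 3281 and 1943. Here the replicates moved together and the temperatures did not separate (0.04 ± 0.19, adjusted p 0.903). Slc16a3, the lactate carrier of strongly glycolytic cells, was dim and read 39.2, 27.9, 34.7 and 39.0 against 16.96, 23.2, 59.3 and 85.2, a spread at 37 °C that covered all 31.5 °C values.

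Among the 16 tested hypoxia-response genes the only calls of the unpaired fit were those of Pdk1 and Ndrg1. Pdk1, by its brightest probe set, read 110, 101, 135 and 132 at 31.5 °C and 205, 181, 174 and 175 at 37 °C. The groups did not overlap, and Pdk1 was lower by 0.63 ± 0.11 on the log2 scale, a 0.647-fold level (adjusted p 0.00965, paired 0.0103), and with any 1 array left out (adjusted p 0.0142 to 0.0309). With median scaling the adjusted p was 0.0611. The other tested probe sets of the gene gave another picture: one read 70.1, 40.8, 179 and 285 at 31.5 °C and 43.9, 44.0, 125 and 154 at 37 °C. Replicates 3 and 4 were high at both temperatures and replicates 1 and 2 low, a 4.94-fold range between pairs where the called probe set had 1.13-fold. Its difference was 0.49 ± 0.66 (adjusted p 0.670), that of the third probe set 0.21 (0.865). Averaging all 4 probe sets of Pdk1, of which 1 was too dim to be tested, gave -0.05 (0.951). The direction for Pdk1 as a gene therefore depended on the probe set.

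Ndrg1 read 224, 120, 127 and 125 at 31.5 °C and 265, 213, 227 and 257 at 37 °C by its brightest probe set. Replicate 1 at 31.5 °C stood far above the other 3 and reached into the 37 °C range, and the others were close together. Ndrg1 was lower by 0.74 ± 0.20 (adjusted p 0.0368, paired 0.0106). Without that array the difference was -0.95 with an adjusted p of 0.00483; without any other single array it no longer passed (adjusted p 0.0609 to 0.0970), while in the paired fit it passed without any 1 pair (0.00933 to 0.0464). It also missed the threshold with median scaling (0.113), no filter on dim probe sets (0.0925), averaged probe sets (0.0801), array weights (0.0532), or without probe sets whose suffix marks possible cross-hybridisation (0.0782). All 5 tested probe sets of Ndrg1 were lower, from -1.14 to -0.59. In 3 of the 5, the first pair was slightly higher at 31.5 °C and the other three pairs lower. Loss of Ndrg1 causes a demyelinating neuropathy in people. Markers of differentiating and myelinating oligodendrocytes were also mostly lower at 31.5 °C: 12 of 14 were lower and 0 higher, also in the paired fit. Their summed signal ranged from 13242 to 18638 at 31.5 °C and from 25313 to 31726 at 37 °C. The part of these cells in the Ndrg1 difference was not tested.

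**Figure D3:**
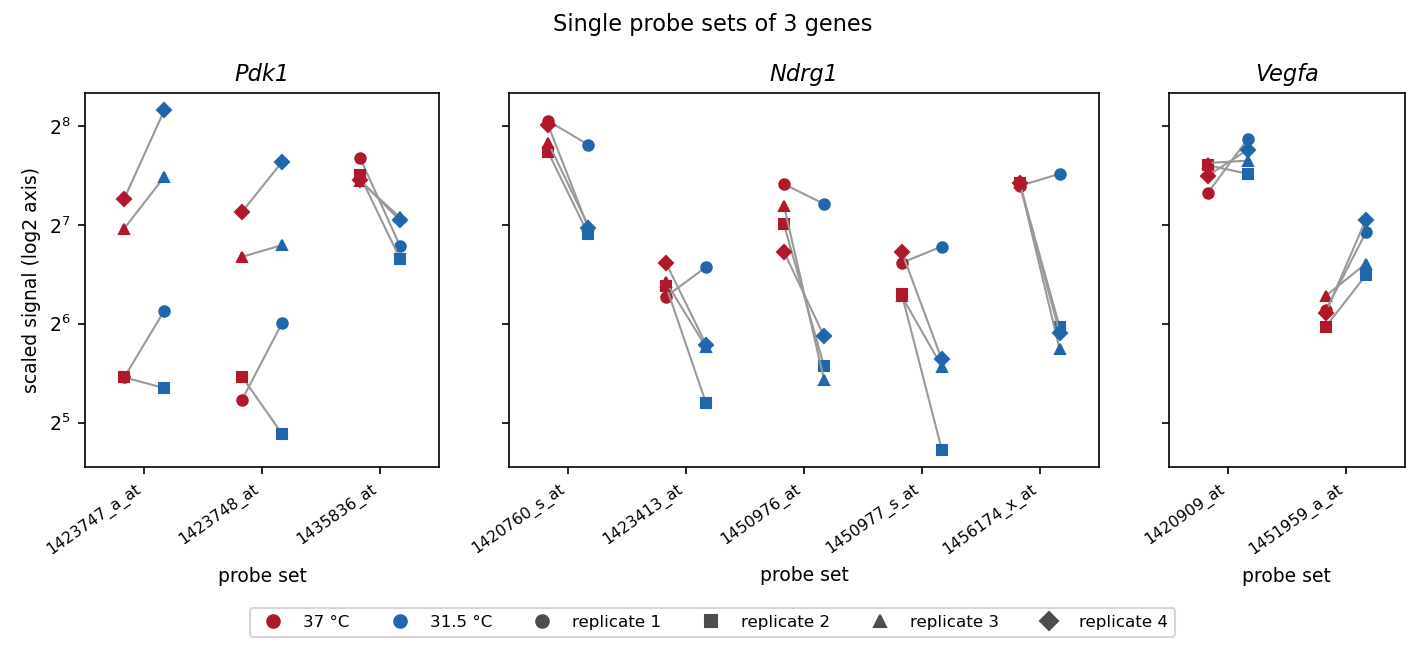
Scaled signal (log2 axis) of each tested probe set of Pdk1, Ndrg1 and Vegfa at 37 °C and 31.5 °C, with lines joining arrays of 1 replicate number. For Pdk1 1 probe set descends in all pairs and the other two are spread by replicate, the 5 of Ndrg1 descend in pairs 2, 3 and 4, and of Vegfa the dimmer one rises in all 4 pairs.

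Of the genes that act on mitochondria, Bnip3 and Higd1a read higher at 31.5 °C and passed in the paired fit. Bnip3, a receptor that marks mitochondria for autophagy, read 1127, 696, 772 and 664 at 31.5 °C and 624, 571, 634 and 497 at 37 °C. Replicate 1 at 31.5 °C was the highest and all 31.5 °C arrays lay above all 37 °C arrays. The difference was 0.46 ± 0.17 (adjusted p 0.101, paired 0.0248); it was 0.29 without the first 31.5 °C array, and in the paired fit it passed without pair 1 or 3 (0.0472 and 0.0460) but not without pair 2 or 4 (0.0517 and 0.0648). Higd1a, a small protein of the respiratory chain, read 2752, 2055, 2216 and 2122 against 1923, 1848, 1952 and 1612, again without overlap. The difference was 0.31 ± 0.11 (adjusted p 0.0974, paired 0.0351), it did not pass without any 1 pair (0.0541 to 0.113), and its other probe sets were at -0.11 and 0.18 without passing. Bnip3l, the close relative of Bnip3, was read by 3 probe sets that it shares with a pseudogene, at 0.11, -0.03 and -0.30, none of which passed.

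Of the secreted signals, Adm and Vegfa had all tested probe sets above 0. Whether they passed depended on the fit, the probe set or the pairs kept. Adm encodes adrenomedullin, a peptide that widens vessels; it read 78.7, 75.3, 109 and 181 at 31.5 °C and 62.1, 68.7, 81.2 and 139 at 37 °C. Each pair was higher at 31.5 °C; the means of the pairs spanned a 2.27-fold range and the temperatures differed 1.25-fold. The difference was 0.32 ± 0.33 (adjusted p 0.547, paired 0.0221), and in the paired fit it passed without pair 2 (0.0291) but not without pair 1, 3 or 4 (0.0705 to 0.0802); its other probe set gave 0.47 (paired 0.0104). Vegfa, the main growth factor of blood vessels, was not called by its brightest probe set, with 209 ± 21.9 at 31.5 °C and 183 ± 16.9 at 37 °C (0.19 ± 0.11, adjusted p 0.268). Its other probe set read 121, 89.8, 97.5 and 133 against 70.3, 62.7, 77.8 and 69.2. There the groups did not overlap, the difference was 0.64 ± 0.14, and it passed among all 22519 probe sets tested singly (adjusted p 0.0194, paired 0.0132), where 13.2% of probe sets passed (6.46% higher and 6.76% lower; in the paired fit 26.3%, with 12.4% higher and 13.9% lower). The average of both Vegfa probe sets was 0.41 higher (adjusted p 0.0424). The stanniocalcins Stc1 and Stc2, hormones of calcium and phosphate balance, were at -0.24 and -0.27 (adjusted p 0.340 and 0.606), and neuritin, Nrn1, which promotes neurite growth, at -0.12 (0.477).

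The oxygen sensors and other intracellular targets did not pass in either fit. Egln1 and Egln3, the prolyl hydroxylases that tag HIF and are themselves HIF targets, were at 0.08 and 0.09 (adjusted p 0.591 and 0.817). Kdm3a, a histone demethylase, was at 0.07, and Ak4, a mitochondrial adenylate kinase, at -0.06. Ankrd37, Ddit4, which restrains mTOR, and Mxi1, a MYC antagonist, were at -0.17, -0.14 and -0.15. For Egln1 and Kdm3a the 95% intervals, -0.13 to 0.29 and -0.14 to 0.28, held differences in either direction. Egln3 was wider, at -0.42 to 0.61, with 334 in replicate 1 at 31.5 °C against 180.4 to 209 in the other three.

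Set beside each other, the 12 tested glycolytic enzymes and the 16 tested hypoxia-response genes had medians close together. The enzymes had a median difference of -0.12, with 4 above 0 and 8 below, and the hypoxia-response genes of -0.09, with 7 above and 9 below; over all genes the median was -0.0017, with 5732 above and 5793 below. By pair, the median of the enzymes was 0.05, -0.03, -0.17 and -0.23 for replicates 1 to 4, so that its sign differed between replicates 1 and 4, and that of the hypoxia-response genes was 0.06, -0.07, -0.04 and 0.04. The enzymes' median stayed below 0 with any 1 array left out (-0.16 to -0.05) and with median scaling (-0.03). The hypoxia-response median lay at -0.002 with median scaling, at -0.02 without the fourth 31.5 °C array, and at 0.02 when probe sets of a gene were averaged. With median scaling the median of all genes was itself at 0.0873. In size without sign, the median difference was 0.117 for the enzymes and 0.178 for the hypoxia-response genes, with median standard errors of 0.0965 and 0.140. The unpaired limma calls were 2 of 16 hypoxia-response genes and 0 of 12 enzymes (4 enzymes, Pfkl, Pfkp, Pgam1 and Eno2, at an unadjusted p under 0.05). In the paired fit 3 hypoxia-response genes were higher and 2 lower, against 0 and 2 enzymes. Over all genes tested, 15.4% passed in the unpaired limma fit, 31.1% at an unadjusted p under 0.05 and 30.8% in the paired fit. The difference between the groups was not tested, since genes are no replicates of a temperature.

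The level also differed between the pairs of arrays. The range over the means of the 4 pairs exceeded the difference between temperatures in 23 of the 30 tested genes (76.7%) and in 71.1% of all genes; a range over 4 means is the wider measure by its construction. The fold range was widest for Adm and Slc16a3 (2.27-fold each), Stc2 (2.13-fold) and Pfkp (1.74-fold). The 7 genes where the temperature difference was the larger were Eno2, Ndrg1, Pdk1, Pfkfb3, Pfkl, Pgam1 and Vegfa. In 10 of the 30 tested genes (33.3%) all 4 pairs had the same sign, against 50.4% of all genes. Of 18 genes with several tested probe sets, 4 had all above 0, 8 all below and 6 on both sides.

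Further genes of the same pathways, from 5 lists that hold none of the 35, were read against the same 15.4% of all genes called (30.8% in the paired fit); Pfkfb4 stands in 2 of the lists. Of 18 other glycolysis genes tested, 2 were higher and 0 lower (5 and 0 at an unadjusted p under 0.05; 4 and 3 in the paired fit), with a median of 0.04. Pgm1, phosphoglucomutase, was higher by 0.54 ± 0.11 (adjusted p 0.0162) and Eno3, the muscle enolase, by 0.51 ± 0.12 (0.0287); without the third 31.5 °C array neither passed (0.0506 and 0.0551), Pgm1 did not pass with its probe sets averaged (0.40, 0.117), Eno3 did not with no filter (0.0559), and Eno3 passed with 2 of the 8 arrays left out singly. Pkm, the pyruvate kinase of most tissues, was at 0.04 (0.748), and Aldoc, the aldolase of brain and an astrocyte marker, at -0.44 (0.212, paired 0.00914). Of 17 tested genes listed for pyruvate entry into mitochondria and nearby steps, 1 was higher and 0 lower in the unpaired limma fit. At an unadjusted p the counts were 2 and 0, and in the paired fit 2 and 1. The 1 was Me1, a malic enzyme that makes NADPH and is not itself an entry step. Me1 was higher by 0.67 ± 0.14 (adjusted p 0.0182). It did not pass without the second 37 °C or the third 31.5 °C array (0.0511 and 0.0552). Pdk3, a relative of Pdk1, was at 0.31 (0.0532, paired 0.0197).

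Of 12 other carriers of glucose and lactate, 3 were higher and 2 lower (3 and 3 in the paired fit), with a median of -0.24. Slc16a6, of the monocarboxylate carrier family, read 219 ± 20.5 at 31.5 °C and 93.7 ± 19.9 at 37 °C, higher by 1.24 ± 0.16 (adjusted p 0.00284) and with any 1 array left out. Slc2a10 was higher by 0.88 (0.0185) and Slc2a8 by 0.35 (0.0293), while Slc2a13, which carries inositol, was lower by 0.52 (0.0204) and Slc16a7, a lactate carrier of high affinity, by 0.67 (0.0286). The calls of Slc2a13, Slc2a8 and Slc16a7 were lost with some single arrays left out, Slc2a13 passing in 4 of 8 and the others in 2 of 8. Slc2a10 did not pass without the third 31.5 °C array (0.0523), with no filter (0.0512) or without probe sets that may cross-hybridise (0.56, 0.0796). Slc16a7, near the floor, was at -0.29 with the floor at the 50th percentile (0.119) and missed the threshold with quantile scaling, no filter or an intensity trend (0.0645 to 0.0780). Of the 16 tested components of the HIF machinery, Arnt2, a partner of HIF in the nervous system, was higher by 0.36 ± 0.07 (adjusted p 0.0140) and 0 were lower (2 at an unadjusted p, 1 in the paired fit). Hif1a was at 0.03 (0.869; -0.14 with its probe sets averaged), Epas1 at 0.24 (0.464) and Arnt at -0.16 (0.498). Of 38 other HIF targets, 1 was higher and 2 were lower (4 and 4 in the paired fit), with a median of -0.08. Hmox1, heme oxygenase, was higher by 0.75 ± 0.12 (adjusted p 0.00688), P4ha1, a collagen prolyl hydroxylase, lower by 0.57 ± 0.10 (0.00877), and Angptl4, an inhibitor of lipoprotein lipase, lower by 0.88 ± 0.17 (0.0125), each also with any 1 array left out. Without probe sets that may cross-hybridise, 1 of these other HIF targets was lower, where 2 were with all probe sets. With median scaling the calls of P4ha1, Arnt2, Slc2a13, Slc2a8 and Slc16a7 here, and of Pgm1 above, missed the threshold (adjusted p 0.0536 to 0.107). Pkm, Aldoc, Hif1a, Epas1, Arnt, Slc2a8 and Slc16a7 were named after their values were seen.

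**Figure D4:**
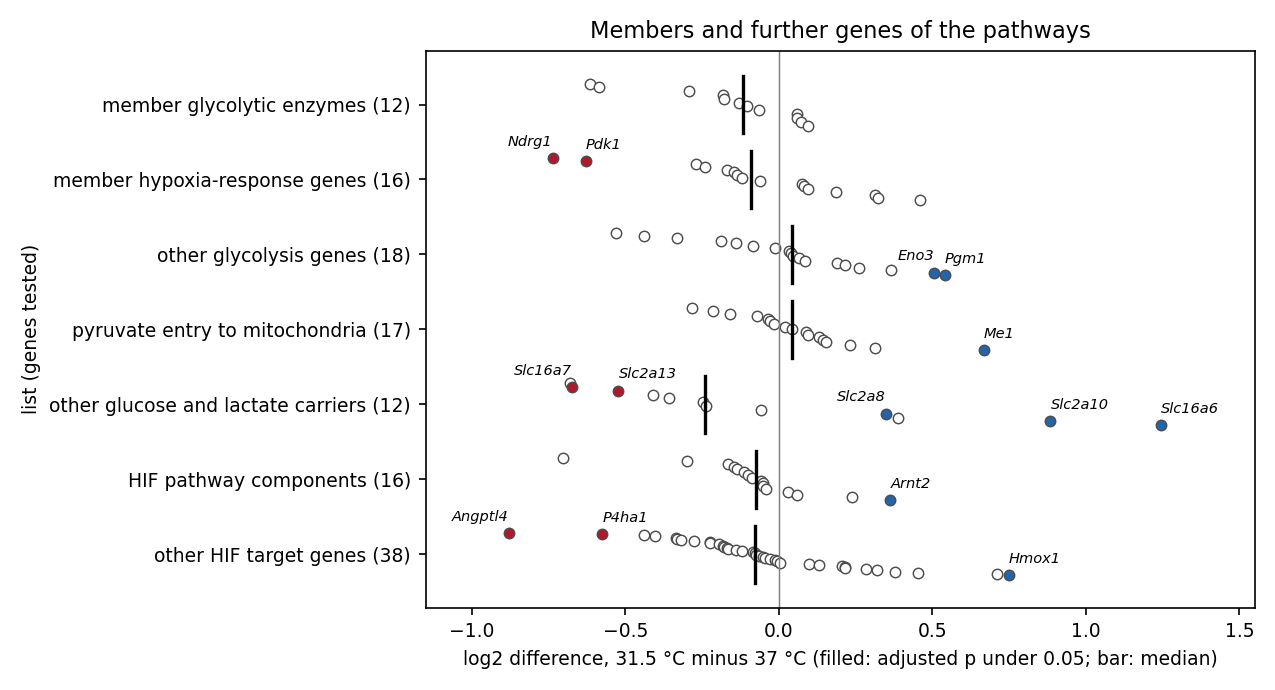
Log2 difference, 31.5 °C minus 37 °C, of each tested gene of the enzymes and hypoxia-response genes above and of 5 lists of further pathway genes; filled and named points passed at a limma adjusted p under 0.05 and the bar is the list median. The medians lie between -0.24 and 0.04, and the called genes lie on both sides of 0.

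The arrays were checked for cell makeup and RNA quality. All 14 listed markers of oligodendrocyte precursors passed the filter; 2 were higher and 5 lower at 31.5 °C (3 and 6 in the paired fit), and their summed signal was 21326 to 23903 against 22515 to 26245. Markers of differentiating and myelinating oligodendrocytes differed most. Of 14 tested, 12 were lower and 0 higher in both fits, and their summed signal was 13242 to 18638 against 25313 to 31726. Over all genes tested, 15.4% passed in the unpaired limma fit and 30.8% in the paired fit. Markers of other cells were also present. Astrocyte markers summed to 12644 to 20919 against 15618 to 26391 (0 of 13 higher and 1 lower; 1 and 7 in the paired fit), and microglia markers to 11106 to 19549 against 14124 to 25827 (0 of 15 higher and 1 lower; 0 and 5 in the paired fit). Endothelial markers were dim, with 5 of 12 bright enough to test, 0 higher and 0 lower in the unpaired limma fit (0 and 1 at an unadjusted p; 1 and 2 in the paired fit), and summed to 518 to 1626 against 589 to 1492. Fibroblast markers summed to 3590 to 8144 against 3262 to 6000, with 1 of 9 higher and 1 lower (1 and 3 in the paired fit). Of all these lists, 0 markers sat at the floor signal on all 8 arrays. How far these cells account for the differences above was not tested. Between the actin controls, the 3′ signal over the 5′ signal was 1.21 ± 0.0415 at 31.5 °C and 1.24 ± 0.0431 at 37 °C (exact permutation test, two-sided, p = 0.429), and that of Gapdh 0.735 ± 0.0235 and 0.745 ± 0.0129 (exact p = 0.543; both 0.543 after adjustment for the 2 ratios); 4 arrays against 4 can give no p under 0.0286. The mean signal before scaling ranged from 189 to 238 at 31.5 °C and from 132 to 248 at 37 °C.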

How the data were processed

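RNA of 8 samples of cultured cells, 4 at 31.5 °C and 4 at 37 °C, was measured on Affymetrix mouse arrays. The authors deposited a linear intensity for each probe set, computed with MAS5 per the submitters' processing notes. Its version and scaling target are not given in the sources used here, and detection calls were not used here. The 35 genes and all lists were chosen with earlier results of these data known.

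The 45101 probe sets include 64 controls, which were dropped. The platform annotation gives 1 gene symbol to 34945 of the remaining 45037, several to 932 and none to 9160. Arrays were brought to a common trimmed mean (2% removed at each end; factors 0.848 to 1.60, the trimmed means differing up to 1.89-fold). Signals below the 25th percentile (9.80) were raised to it before taking log2. The brightest probe set stood for a gene, and genes at or above the median (36.3) were tested. The comparison, 31.5 °C minus 37 °C, was fitted with limma 3.58.1 in R 4.3.3. P-values were adjusted by Benjamini-Hochberg over 11525 genes, with a threshold of 0.05, or over 22519 for probe sets tested singly.

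Replicate numbers pair the arrays: deviations from the group means correlated at 0.541, 0.422, 0.497 and 0.614 within a number and at most at 0.0566 between numbers. Deviations from a group mean cancel within the group, which by itself lowers the correlations between numbers. The paired fit adds the number as a block, and its values or counts stand beside the calls it changes. All 35 genes are named, and of each pathway list up to 3 genes of smallest p. There were 25 alternative settings. The number of arrays limits the precision. Promoter windows came from RefSeq tables, and 4 genes had no window there. The fit was tested on simulated data with known changes.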

Additional observations from a re-analysis of the deposited data

Results flagged for a closer look

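In each temperature group of 4 arrays, the highest and lowest signal of each gene was compared with the rest, in 62 groups. In 4 of them 1 array stood apart by a gap, as a share of the group's whole range, above Dixon's critical value; by chance this marks about 1 group in 20. Ndrg1 at 31.5 °C had 224 in replicate 1 (gap 0.907 of the range). Stc1 at 31.5 °C had 138 in replicate 4 (0.952). At 37 °C, replicate 3 stood highest for both Hk2, with 278 (0.876), and Pfkfb3, with 474 (0.859).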

How the results depend on the processing

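Of the genes of the group, 2 were lower and 0 higher in the unpaired limma fit. Under other settings the lower calls came to 0 with median scaling, 0 with the probe sets of a gene averaged (1 higher), and 1 with no filter, with array weights or without probe sets that may cross-hybridise. At an unadjusted p there were 3 higher and 6 lower, and over single probe sets 1 was higher. With the replicate block, which pairs the arrays, 4 were higher and 4 lower. In that paired fit without pair 1, 2, 3 or 4 there were 2, 2, 2 and 1 higher. The lower counts were 4, 3, 4 and 3. Eno2 did not pass without pair 1, so the 4 lower there are not the same 4 genes. With all pairs in, the block changed no other call among the 30 tested genes. With 1 array left out, 1 to 2 were lower and 0 higher. Over all genes, 880 were higher and 895 lower. These counts were 454 and 271 with median scaling, 1455 and 1522 over single probe sets, 1730 and 1818 with the replicate block, 1803 and 1781 at an unadjusted p, and 428 to 794 and 444 to 797 with 1 array left out, where fewer arrays enter. The median of the hypoxia-response genes, -0.09, was -0.00197 with median scaling, 0.0209 with averaged probe sets and between -0.113 and -0.0174 with 1 array left out. The median of the enzymes stayed between -0.16 and -0.03 under the settings that recompute it (other scalings, floors and probe set choices, array weights, the block, and arrays or pairs left out). With median scaling the median of all genes moved as well, from -0.0017 to 0.0873. The cause of the shifts under the other settings was not tested. Dim probe sets, such as those of Slc16a3 and Stc2, and the lack of detection calls here limit what can be said of genes of low signal.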
